A study of Homo sapiens with 23 samples.

Results

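The genes described here are 10 members of the insulin-like growth factor (IGF) axis, followed through RNA sequencing of prostate cancer cells in which the transcription factor ONECUT2 (OC2) was raised, lowered or inhibited. They were taken by name: the receptors IGF1R, INSR and IGF2R, the adaptors IRS1 and IRS2, and the binding proteins IGFBP2, IGFBP3, IGFBP4, IGFBP5 and IGFBP6. All 10 were found, on 1 line each, among the 60683 genes of the LNCaP table, the 58219 of the LAPC4 table and the 54657 of the drug table. The series holds 23 libraries in 9 groups. LNCaP cells with OC2 overexpression (OC2 OE, 2 libraries) stood beside 2 control libraries, and LNCaP cells with a short hairpin against OC2 (shOC2, 2 libraries) beside 2 shCon libraries. LAPC4 cells with OC2 OE (3 libraries) stood beside 3 vector libraries. LNCaP cells of the drug experiment received, for 7 days, 10 µM enzalutamide with 10 µM of an OC2 inhibitor (3 libraries), 10 µM enzalutamide (3) or vehicle (3).

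LNCaP is an androgen-sensitive line, kept here in RPMI-1640 with 10% serum. LAPC4, another prostate cancer line, was kept in IMDM with 10% serum and 1 nM of the synthetic androgen R1881. Enzalutamide blocks the androgen receptor. The labels do not say whether libraries of a group came from separate cultures, or whether the modified lines were clones or pools, so p-values measure the spread between these libraries, which may be technical. They do not say what the LNCaP control of the overexpression carried, and OC2 OE and control libraries bear another style of library name than the hairpin libraries. A comparison of OC2 OE with shCon therefore crosses the naming styles, and such a difference cannot be told apart from the choice of control.

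IGF1 and IGF2 bind IGF1R, a receptor tyrosine kinase that also pairs with the insulin receptor INSR, and the active receptors phosphorylate IRS1 and IRS2, which recruit phosphatidylinositol 3-kinase. IGF2R has no kinase, takes up IGF2 for breakdown and carries lysosomal enzymes. The binding proteins hold IGFs outside the cell, prolong their life and limit or focus their access to the receptor. Proteases release the ligands, and in prostate the kallikreins KLK2 and KLK3 (prostate-specific antigen) are known to cleave IGFBP3.

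Coordinates of the members are from GENCODE 29 on hg38. IGF1R covers chromosome 15 from 98648539 to 98964530 (plus strand), INSR chromosome 19 from 7112255 to 7294034 (minus) and IGF2R chromosome 6 from 159969099 to 160113507 (plus). IRS1 lies on chromosome 2 from 226731317 to 226799759 (minus) and IRS2 on chromosome 13 from 109752698 to 109786568 (minus). IGFBP2 (216632828 to 216664436, plus) and IGFBP5 (216672105 to 216695525, minus) are neighbours on chromosome 2 that point towards each other. IGFBP3 lies on chromosome 7 from 45912245 to 45921874 (minus), IGFBP4 on chromosome 17 from 40443461 to 40457731 (plus) and IGFBP6 on chromosome 12 from 53097436 to 53102345 (plus). Of IRS2, 115 exon bases overlap the antisense gene AL162497.1, and of IGFBP5, 298 overlap the antisense gene AC007563.2. Whether strand was used in counting is not given in the sources used here, so reads in those stretches cannot be assigned to a strand. The other 8 share no exon with another annotated gene.

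The 250 bases before the RefSeq start (GRCh38.p14) are shown, 5′ to 3′ on the gene's own strand, for the 3 members called both in LNCaP OC2 OE against control and in shOC2 against shCon with changes over 3-fold, for IGFBP4, which rose most in LAPC4, and for IGFBP5, which was high in both LAPC4 groups. Capitals mark CpG dinucleotides. IGF1R (chr15:98648289-98648538, plus) held 48 CpGs, more than 99.7% of the 35114 RefSeq windows of that length, and IRS2 (chr13:109786584-109786833, minus) held 42. IGFBP3 (chr7:45921273-45921522, minus) held 32 and IGFBP4 (chr17:40443200-40443449, plus) 24. IGFBP5 (chr2:216695550-216695799, minus) had 8 CpGs, below the median of 11 over all windows.
IGF1R: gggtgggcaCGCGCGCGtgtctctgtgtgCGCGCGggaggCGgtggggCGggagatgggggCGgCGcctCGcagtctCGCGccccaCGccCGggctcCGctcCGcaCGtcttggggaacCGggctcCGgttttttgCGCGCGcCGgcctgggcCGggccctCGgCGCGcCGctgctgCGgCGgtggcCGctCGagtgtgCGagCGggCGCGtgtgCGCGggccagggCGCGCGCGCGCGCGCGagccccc
IRS2: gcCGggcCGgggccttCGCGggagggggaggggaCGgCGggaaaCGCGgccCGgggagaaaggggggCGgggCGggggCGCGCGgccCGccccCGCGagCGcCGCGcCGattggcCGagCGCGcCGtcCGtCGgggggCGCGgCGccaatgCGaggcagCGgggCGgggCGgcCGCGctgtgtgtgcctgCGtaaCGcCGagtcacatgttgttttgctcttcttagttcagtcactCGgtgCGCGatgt
IGFBP3: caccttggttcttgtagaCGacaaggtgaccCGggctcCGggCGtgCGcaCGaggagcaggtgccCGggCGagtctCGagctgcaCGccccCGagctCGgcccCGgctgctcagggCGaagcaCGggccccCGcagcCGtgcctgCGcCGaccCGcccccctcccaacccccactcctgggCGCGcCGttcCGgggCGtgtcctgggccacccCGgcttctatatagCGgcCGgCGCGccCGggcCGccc
IGFBP4: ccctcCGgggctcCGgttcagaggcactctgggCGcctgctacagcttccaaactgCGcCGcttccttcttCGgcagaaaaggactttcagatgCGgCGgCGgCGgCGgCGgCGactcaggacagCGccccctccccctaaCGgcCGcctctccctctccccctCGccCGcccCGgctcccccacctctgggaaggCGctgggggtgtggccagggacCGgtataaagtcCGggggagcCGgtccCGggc
IGFBP5: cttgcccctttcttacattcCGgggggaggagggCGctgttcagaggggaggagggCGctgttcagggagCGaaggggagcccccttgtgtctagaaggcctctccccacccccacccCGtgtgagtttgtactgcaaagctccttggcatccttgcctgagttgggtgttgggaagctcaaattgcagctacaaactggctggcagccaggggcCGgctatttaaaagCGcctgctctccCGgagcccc

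All 12 RefSeq windows of the 10 members were searched on both strands for ATTGAT and ATCGAT, the core letters of the hepatocyte nuclear factor 6 type site that ONECUT proteins bind and for the forkhead core GTAAACA. Among all windows these were present in 5.58%, 0.655% and 2.98%. Of the 12 windows, 1 held any of them, a GTAAACA match before the RefSeq start of IGFBP6. For the other members these letters are simply not in the windows searched. The windows of IGFBP6, of IGFBP3 and of the later IGFBP2 starts lie mostly or wholly within the GENCODE spans given above. Those spans begin upstream of these RefSeq starts.

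The check of the labels was ONECUT2 itself. Levels are given as CPM, counts scaled to library totals adjusted by TMM, and are set side by side only within a table. ONECUT2 stood at 334 and 306 CPM in LNCaP OC2 OE, against 24.6 and 30.6 in control and 20.4 and 21.2 in shCon. It was at 12.1 and 12.1 CPM in shOC2, 1.71-fold below shCon (edgeR log2 fold change -0.77, SE 0.09, adjusted p = 4.84e-05), and at 969, 811 and 913 CPM in LAPC4 OC2 OE against 13.2, 17.0 and 16.3 with vector. Each LNCaP library of the overexpression and knockdown experiments held 20964025 to 23272088 counts, each LAPC4 library 28586064 to 30465978, and each library of the drug experiment 22615580 to 28241076. All 11 luminal prostate markers listed were detected in every group, and the 4 blood cell markers summed to at most 0.429 CPM in any library. In LNCaP the luminal markers together ran from 4774 to 4864 CPM in OC2 OE, against 8326 to 8495 in control and from 9523 to 9544 in shOC2, against 7205 to 7513 in shCon. The 8 fibroblast and stromal markers summed to 20.1 to 20.3 CPM in OC2 OE, against 19.8 to 21.8 in control, and to 23.8 to 28.4 in shOC2, against 34.0 to 40.8 in shCon. The part of these lists in the results below was not tested.

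Per kb of annotated exon, the scale on which genes can be set against each other, IGFBP2 and IGF2R were the most abundant members in LNCaP control, at 32.0 ± 2.0 and 11.1 ± 0.79 CPM per kb (SD, n = 2). IRS1 (3.56 ± 0.33), INSR (2.97 ± 0.091) and IRS2 (1.14 ± 0.14) followed on the same scale. IGF1R at 0.983 ± 0.061 and IGFBP3 at 0.900 ± 0.092 CPM per kb differed by less than the SD of IGFBP3 and by more than that of IGF1R. IGFBP5 (0.118 ± 0.028) and IGFBP4 (0.0936 ± 0.039) were near the limit of detection and did not differ beyond their spread, and IGFBP6 had no count in control. In LAPC4 with vector the order was another, with IGFBP5 first at 109 ± 14 CPM per kb (n = 3), IGFBP2 at 15.9 ± 0.40, IGF2R at 5.61 ± 0.81 and IRS1 at 5.29 ± 1.1, the last pair within its spread. INSR (3.63 ± 0.32) and IGF1R (1.38 ± 0.22) were lower there, with IGFBP3 (4.40 ± 0.55) between IRS1 and INSR, and IRS2 (0.202 ± 0.028), IGFBP4 (0.218 ± 0.069) and IGFBP6 (0.111 ± 0.067) were lowest.

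The first comparison asked what OC2 overexpression changes in LNCaP, here against its own control. IGFBP3, IRS2 and IGF1R rose 9.66-fold, 4.94-fold and 3.08-fold, and INSR rose 1.18-fold. IRS1, IGFBP2, IGFBP5 and IGF2R did not pass the test, and IGFBP4 and IGFBP6 were too low to enter it. Thus 4 of the 8 members tested were higher and 0 lower, where 60.8% of the 17046 genes tested were called, 31.6% higher and 29.3% lower. A share of called members near that of all genes is no result about the members. The median log2 fold change was 0.15 over the 8 members and 0.02 over all genes. In bulk RNA of a culture, fewer cells of a kind and less RNA per cell cannot be told apart.

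IGF1R, the receptor tyrosine kinase for IGF1 and IGF2, had 43.0 and 42.6 CPM in OC2 OE, against 14.3 and 13.1 in control. Both OC2 OE libraries were above both controls (log2 fold change 1.62, SE 0.09, adjusted p = 4.66e-07). INSR, the insulin receptor, had 36.1 and 38.0 CPM against 31.7 and 30.3. Its groups did not overlap, and its call (0.23, SE 0.08, adjusted p = 0.0345) ended without any single library (adjusted p from 0.059 to 0.227), without the filter on low counts (0.0565) and with DESeq2 (0.158). IGF2R, the clearance receptor, had 180 and 187 CPM against 188 and 208, lower in both OC2 OE libraries but by less than the test required (-0.13, SE 0.08, adjusted p = 0.163). Without control library 1 it passed (-0.21, adjusted p = 0.0405).

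Of the adaptors, IRS2 had 47.9 and 45.3 CPM in OC2 OE, against 10.1 and 8.53 in control (2.31, SE 0.11, adjusted p = 1.16e-07). IRS1 had 36.5 and 33.0 CPM against 37.8 and 33.1, overlapping ranges whose log2 difference of -0.05 had an interval of about 2 SE from -0.24 to 0.14. Of the binding proteins, IGFBP3, the main carrier of IGFs in serum, had 39.4 and 41.2 CPM against 4.41 and 3.82 (3.27, SE 0.12, adjusted p = 1.94e-08). IGFBP2 had 175 and 150 CPM against 159 and 146, again overlapping, with a log2 interval from -0.11 to 0.24. IGFBP5 held 32 counts over both OC2 OE libraries and 33 over both controls, too few for a narrow estimate (interval from -0.75 to 0.70). IGFBP4 held 1 count in all against 9, and IGFBP6 1 against 0.

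**Figure D1:**
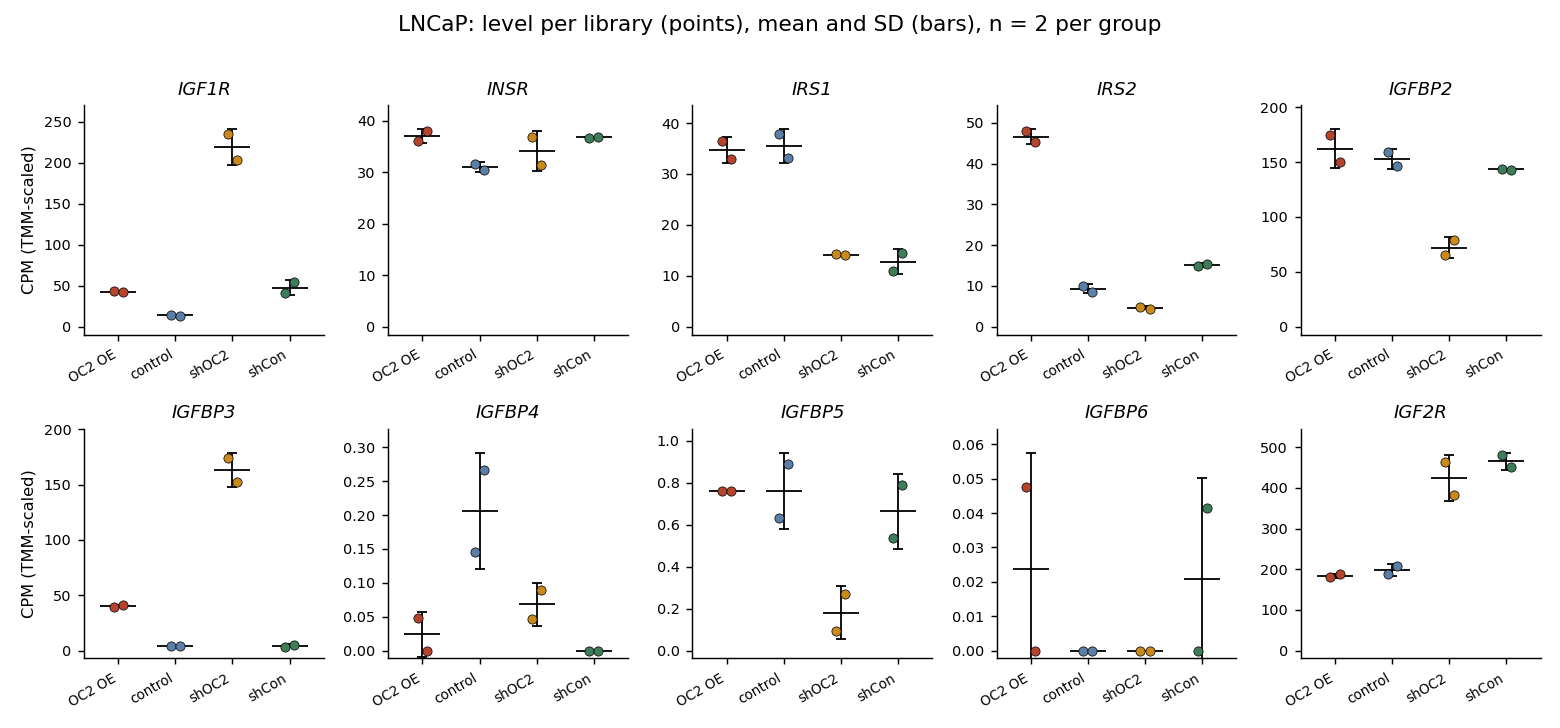
CPM of each of the 10 genes in each LNCaP library of the overexpression and knockdown experiments, a panel per gene with its own linear axis; points are libraries, bars the mean and SD of 2 libraries, and the groups run OC2 OE, control, shOC2, shCon. IGF1R stands near 43 CPM in OC2 OE, against 13.1 to 14.3 in control, and above 203 in shOC2, against 41.7 to 54.1 in shCon. IGFBP3 is above both control sets in OC2 OE and in shOC2.

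Against shCon, the other LNCaP control set, the same OC2 OE libraries gave another list. IGFBP3 and IRS2 were again higher, 8.84-fold and 3.05-fold, IRS1 was 2.70-fold higher, and IGF2R was 2.56-fold lower. IGF1R and INSR did not pass the test. Of the 8 members tested, 3 were higher and 1 lower, where 64.0% of 17182 genes were called (33.2% higher, 30.8% lower). The comparisons share their OC2 OE libraries, so the members' values are given side by side and no agreement is counted.

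IGF1R stood at 43.0 and 42.6 CPM in OC2 OE and at 41.7 and 54.1 in shCon, a log2 difference of -0.17 (SE 0.10, adjusted p = 0.159) against the 1.62 found with control. The shCon libraries differed from each other: without shCon 1 the difference was -0.35 (adjusted p = 0.0189) and without shCon 2 it was 0.01 (0.875). INSR at 36.7 and 36.7 CPM in shCon differed from OC2 OE by 0.00 on the log2 scale (interval from -0.13 to 0.13). IGF2R stood at 180 and 187 CPM in OC2 OE and 480 and 451 in shCon (-1.35, SE 0.06, adjusted p = 2.04e-08), where control had shown no call. IRS1 stood at 36.5 and 33.0 CPM against 11.0 and 14.5 in shCon (1.43, SE 0.12, adjusted p = 2.69e-06), also without a call against control.

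For IRS2 and IGFBP3 the direction was the same with either control set. IRS2 had 47.9 and 45.3 CPM in OC2 OE against 14.9 and 15.4 in shCon (1.61, SE 0.07, adjusted p = 4.74e-08), and IGFBP3 had 39.4 and 41.2 against 3.59 and 5.44 (3.14, SE 0.13, adjusted p = 2.81e-08). IGFBP2 had 175 and 150 CPM against 144 and 143 (0.17, SE 0.07, adjusted p = 0.064). With the replicate number as a block it passed (0.16, adjusted p = 0.0327), as it did without OC2 OE 2 (0.29, 0.0299). IGFBP5 (0.19, SE 0.38) did not pass.

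How far the control sets themselves differ was tested as shCon against control. IGF1R was 3.49-fold higher in shCon, IGF2R 2.34-fold higher and IRS2 1.63-fold higher, and IRS1 was 2.78-fold lower. INSR was 1.18-fold higher by a call that ended with DESeq2 (adjusted p = 0.15), without the filter (0.0514) and without control 2, shCon 1 or shCon 2 (0.0711 to 0.144). IGFBP3 (0.13, SE 0.23), IGFBP2 (-0.09, SE 0.07) and IGFBP5 (-0.21, SE 0.39) did not pass. Members were higher in 4 and lower in 1 of 8 cases, where 56.4% of 16790 genes were called (28.3% higher, 28.1% lower). ONECUT2 was 1.33-fold lower in shCon (adjusted p = 0.0127). The part of hairpin vector, culture or library series in these differences was not tested.

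**Figure D2:**
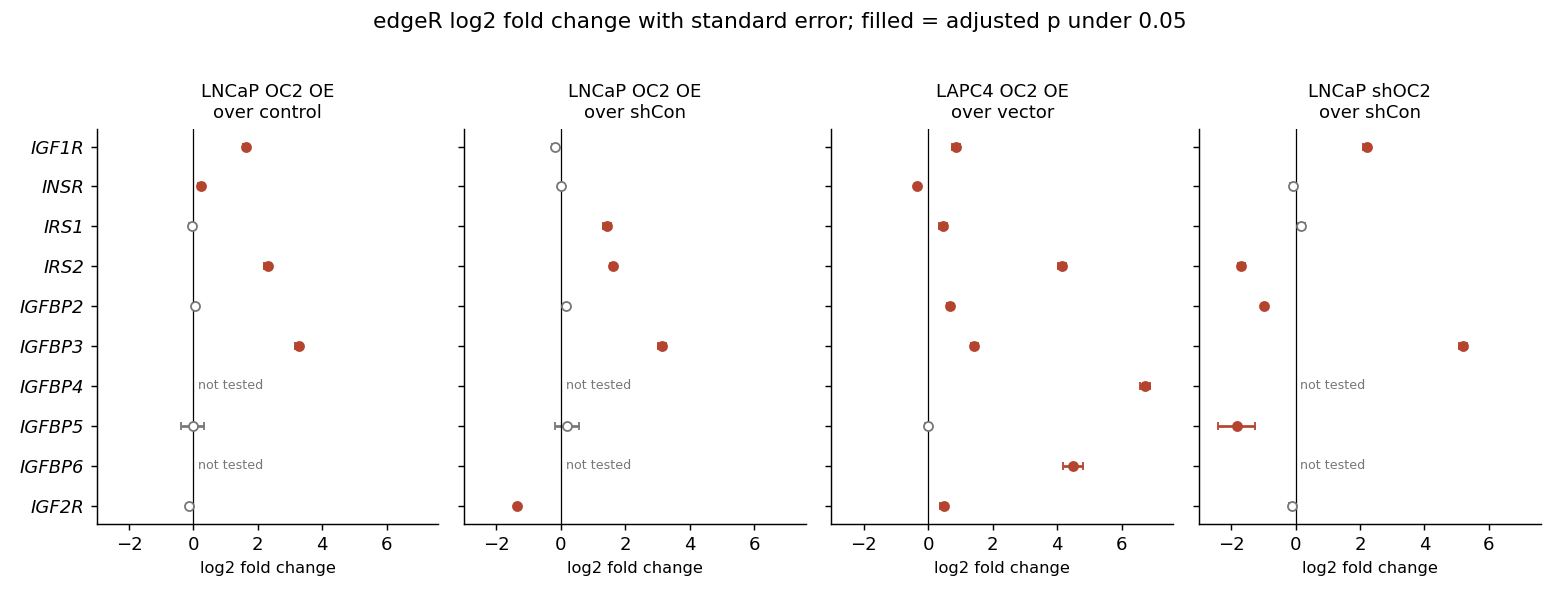
edgeR log2 fold changes of the 10 genes (horizontal axis) in 4 comparisons, a panel each; points are estimates, bars the standard error, filled points have an adjusted p under 0.05, and genes too low for the test are marked as not tested. IRS2 and IGFBP3 lie right of 0 in the 3 overexpression panels, IGF1R lies at 1.62 against control and -0.17 against shCon, and shOC2 cells show IGF1R and IGFBP3 right of 0 and IRS2 left of it.

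The knockdown comparison asked what less OC2 changes in LNCaP. The library names give a single hairpin name for both shOC2 libraries and a single other name for both shCon libraries. Other effects of that hairpin therefore cannot be told apart from those of less OC2. IGFBP3 rose 36.4-fold and IGF1R 4.61-fold in shOC2 cells, while IRS2 fell 3.20-fold, IGFBP2 1.97-fold and IGFBP5 3.54-fold. IGF2R, INSR and IRS1 did not pass. Of the 8 members tested, 2 were higher and 3 lower, where 54.1% of 16585 genes were called (27.3% higher, 26.8% lower). The median log2 fold change was -0.11 over the members and 0.00 over all genes.

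IGF1R reached 235 and 203 CPM in shOC2, against 41.7 and 54.1 in shCon (2.21, SE 0.11, adjusted p = 2.57e-07), the highest of the 4 LNCaP groups in each library. IGFBP3 reached 174 and 152 CPM against 3.59 and 5.44 (5.19, SE 0.13, adjusted p = 4.23e-09). Both genes were thus higher in OC2 OE than in control and higher in shOC2 than in shCon, comparisons that share no library. For IGF1R the rise in OC2 OE depended on the control set. Its shCon level was 3.49-fold above control, and OC2 OE was not above shCon (-0.17, adjusted p = 0.159). IGFBP3 was higher in OC2 OE against shCon too (3.14). IRS2 was lower in shOC2, at 4.92 and 4.46 CPM against 14.9 and 15.4 in shCon (-1.68, SE 0.12, adjusted p = 2.23e-06), below every other LNCaP library of the table. IGFBP2, a binding protein abundant in prostate cancer cells, had 65.4 and 78.8 CPM against 144 and 143 (-0.98, SE 0.08, adjusted p = 5.34e-06). IGFBP5 held 8 counts over both shOC2 libraries against 32, and its call (adjusted p = 0.0214) ended with DESeq2 (0.198), without the filter (0.0828), and without shCon 2 (0.18), shOC2 1 (0.156) or shOC2 2 (0.0582).

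INSR had 36.9 and 31.3 CPM in shOC2 against 36.7 and 36.7 in shCon (interval of the log2 difference from -0.25 to 0.06). IRS1 had 14.3 and 14.0 against 11.0 and 14.5 (0.16, SE 0.13, adjusted p = 0.30), and passed without shCon 2 (0.37, adjusted p = 0.0237). IGF2R had 465 and 384 CPM against 480 and 451, overlapping ranges (-0.12, SE 0.08). IGFBP4 held 3 counts in all against 0, and IGFBP6 0 against 1. The luminal marker sum was higher in shOC2 than in shCon, as given above, and the 4 endothelial markers summed to 2.48 to 2.90 CPM in shOC2, with CDH5 and PECAM1 at 0, against 7.42 to 9.02 in shCon, with CDH5, KDR and PECAM1 at 0. Their part in the knockdown results was not tested.

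Genes whose levels followed IGF1R most closely over the 8 LNCaP libraries were sought among 11518 genes with a mean of at least 5 CPM, by the root mean square difference of centred log2(CPM + 1) values. H2BC8, a histone gene of a family whose copies can share reads, was nearest at 0.21, before the phosphatase gene DUSP5 at 0.29 and the serpin gene SERPINB5 at 0.31, where the median gene lay at 1.42. SERPINB5 averaged 3.67 CPM in OC2 OE, 0.659 in control, 24.0 in shOC2 and 6.80 in shCon. In control H2BC8 averaged 0.166 CPM and DUSP5 0.628. Adding 1 before the log shrinks changes at such levels. The likeness is therefore one of these log values and not of fold changes. The minimum was on the mean over all libraries, and each gene named passed it through shOC2. H2BC8 had 17.8 CPM in shOC2 and at most 2.42 in the other groups. DUSP5 had 15.0 and at most 3.02, and SERPINB5 24.0 and at most 6.80. The search thus favours genes that are high in shOC2. The 8 libraries fall into 4 groups, so the likeness describes group patterns.

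In LAPC4 the same question of overexpression was put in another cell background. IGFBP4 rose 105-fold, IGFBP6 22.6-fold, IRS2 17.8-fold and IGFBP3 2.71-fold over vector. IGF1R (1.83-fold), IGFBP2 (1.60-fold), IGF2R (1.40-fold) and IRS1 (1.37-fold) rose less, and INSR fell 1.26-fold. IGFBP5 did not pass the test. Of the 10 members tested 8 were higher and 1 lower, where 61.1% of 16904 genes were called (32.1% higher, 29.0% lower). IGFBP4 and IGFBP6 passed the filter through the OC2 OE libraries, where they are high, so that they could be tested at all in LAPC4 goes with their rise.

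Among the receptors, IGF1R had 32.3, 34.3 and 39.7 CPM in OC2 OE, against 17.0, 18.0 and 22.8 with vector (0.87, SE 0.12, adjusted p = 0.00016). IGF2R had 124, 142 and 156 CPM against 89.3, 94.4 and 117, without overlap (0.49, SE 0.11, adjusted p = 0.00351). INSR was lower in all 3 OC2 OE libraries, at 29.7, 31.6 and 29.6 CPM against 35.9, 36.2 and 41.8 (-0.33, SE 0.08, adjusted p = 0.00452). IRS2 stood at 29.5, 28.7 and 29.8 CPM in OC2 OE, against 1.46, 1.57 and 1.90 with vector, where it was close to the bottom of the range (4.15, SE 0.12, adjusted p = 1.82e-09). IRS1 had 76.4, 68.0 and 72.9 CPM against 43.2, 50.1 and 64.6, groups that do not overlap although vector library 3 comes close (0.46, SE 0.12, adjusted p = 0.0094).

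IGFBP4, known as a substrate of the protease PAPP-A, had 1534, 1439 and 1618 counts in OC2 OE, against 15, 18 and 9 with vector (6.71, SE 0.15, adjusted p = 4.81e-10). IGFBP6, which prefers IGF2, had 112, 90 and 109 counts against 4, 2 and 7 (4.50, SE 0.31, adjusted p = 1.25e-06). IGFBP3 had 57.7, 55.4 and 51.2 CPM against 22.2, 20.9 and 17.3 (1.44, SE 0.10, adjusted p = 1.74e-06), and IGFBP2 had 137, 111 and 119 against 77.6, 73.9 and 76.5 (0.68, SE 0.08, adjusted p = 6.88e-05). Every OC2 OE library was above every vector library for these 4 genes. IGFBP5 was high in both groups, at 703, 730 and 678 CPM against 613, 693 and 791, with a log2 difference of 0.00 and an interval from -0.17 to 0.18. In the LNCaP table it stood between 0.09 and 0.89 CPM in all 8 libraries, a level from a separately normalised table.

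Markers of other cell types moved with these LAPC4 groups. The 8 fibroblast and stromal markers, all detected in both groups, summed to 18.1 to 20.9 CPM in OC2 OE, against 4.04 to 6.47 with vector. The 3 basal epithelial markers summed to 317 to 338 CPM against 18.7 to 100.1, and the 11 luminal markers to 2289 to 2475 against 2751 to 2955. Their part in the rise of IGFBP4 and the other members was not tested.

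**Figure D3:**
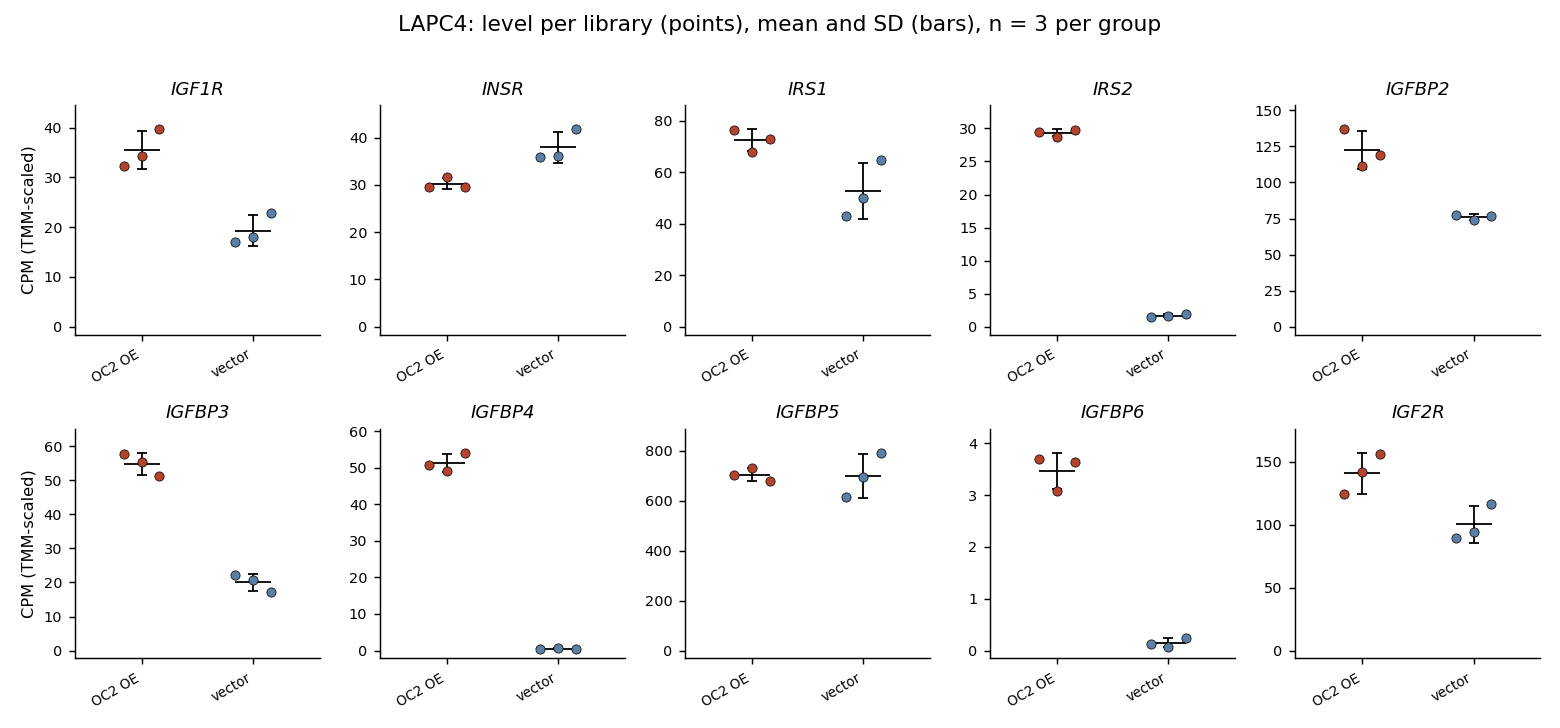
CPM of each of the 10 genes in each LAPC4 library, a panel per gene with its own linear axis; points are libraries, bars the mean and SD of 3 libraries, OC2 OE left of vector. IGFBP4 lies at 49.1 to 54.0 CPM in OC2 OE, against 0.32 to 0.62 with vector, and the groups overlap for IGFBP5.

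Whether the effect of overexpression differs between the lines was tested as an interaction, LAPC4 over vector minus LNCaP over control, on the 19633 genes that could be matched by identifier and passed the filter. The lines also differ in medium, in R1881 and in how their tables were counted, which cannot be told apart from the line. Of the 10 members, 5 had a more positive effect in LAPC4 and 3 a more negative one, where 49.5% of genes were called (25.4% and 24.1%). IRS2 rose more in LAPC4 (by 1.84 on the log2 scale, SE 0.16, adjusted p = 7.5e-07) and IGFBP3 rose less (-1.84, SE 0.17, adjusted p = 1.31e-06). IGFBP4 differed by 9.63 (SE 0.99, adjusted p = 3.12e-06), resting in LNCaP on 1 count in OC2 OE and 9 in control, and its call ended with shCon as the LNCaP control (4.03, adjusted p = 0.957). For IGF1R the sign depended on the control set, at -0.75 (adjusted p = 0.00279) with control and 0.99 (0.000756) with shCon. IRS1 likewise gave 0.51 (0.04) with control and -1.04 (0.0013) with shCon, and the first of these calls ended in 6 of 10 fits that left out a library. INSR (-0.57), IGFBP2 (0.61) and IGF2R (0.62) were called, and IGFBP5 (0.03, interval from -0.69 to 0.74) and IGFBP6 (1.92, SE 6.23) were not.

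In the drug experiment the question was what enzalutamide, alone or with the OC2 inhibitor, changes in LNCaP. With both drugs IGFBP3 was 18.9-fold higher than with vehicle, and IGF1R was 6.93-fold lower, IGFBP2 1.75-fold lower and IGF2R 1.52-fold lower. INSR, IRS1, IRS2 and IGFBP5 did not pass. Members were higher in 1 and lower in 3 of 8 cases, where 46.8% of 17423 genes were called (23.2% higher, 23.6% lower). The 3 arms were fitted together, and their contrasts share libraries. The luminal markers summed to 6745 to 7062 CPM with both drugs, 5549 to 6030 with enzalutamide and 7095 to 7782 with vehicle. The endothelial markers summed to 5.89 to 9.55 CPM with both drugs and 5.33 to 7.09 with enzalutamide, each with CDH5 at 0, and to 17.2 to 19.8 with vehicle, with KDR at 0, and the part of both lists in the drug results was not tested.

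IGF1R had 8.32, 10.1 and 8.15 CPM with both drugs, 23.9, 24.1 and 18.1 with enzalutamide and 60.0, 67.6 and 56.5 with vehicle. None of the 3 arms overlapped, and the log2 fold change was -2.79 (SE 0.14, adjusted p = 6.36e-07) for both drugs over vehicle, -1.48 (SE 0.13, 3.55e-06) for enzalutamide over vehicle and -1.31 (SE 0.14, 1.9e-05) for both drugs over enzalutamide. IGFBP3 had 244, 493.5 and 225 CPM with both drugs, 1225, 969 and 1060 with enzalutamide and 16.9, 15.0 and 18.8 with vehicle. It was highest with enzalutamide alone and lay between the other arms with both drugs, where library 2 stood above libraries 1 and 3. The log2 fold changes were 4.24 (SE 0.30, adjusted p = 4.95e-06) for both drugs over vehicle, 6.00 (SE 0.32, 8.83e-08) for enzalutamide over vehicle and -1.75 (SE 0.26, 0.000217) for both drugs over enzalutamide.

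The enzalutamide columns are whole counts while those of the other arms are estimated counts, so another counting step and the drug cannot be told apart in the contrasts that use them. Of 13520 symbols with at least 50 counts throughout either set, 141 were at 0 in the 3 enzalutamide columns only, and 16 at 0 in the 6 other columns only. PIK3R2, a regulatory subunit of phosphatidylinositol 3-kinase chosen after its values were seen, had 5692 to 5916 counts with both drugs, 2 to 3 with enzalutamide and 6822 to 6930 with vehicle. Its call in the enzalutamide contrasts is counted below. The 8 members tested had counts in all 9 columns. Against vehicle, enzalutamide columns were higher for 4 and lower for 3 of the 8 members, where 70.4% of genes were called (34.7% higher, 35.6% lower). Both drugs over enzalutamide gave 0 higher and 4 lower, where 61.9% were called (31.5% higher, 30.5% lower).

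Among the other receptors, IGF2R had 265, 322 and 242 CPM with both drugs, 305, 286 and 217 with enzalutamide and 436, 432 and 387 with vehicle. Both treated arms lay below vehicle (-0.60, SE 0.14, adjusted p = 0.00568, and -0.64, SE 0.14, 0.00206), and they overlapped each other (0.04, SE 0.14). INSR had 38.6, 34.0 and 33.9 CPM with both drugs, 46.2, 50.9 and 46.0 with enzalutamide and 32.6, 38.9 and 34.1 with vehicle. The enzalutamide columns were the highest, 0.43 over vehicle (SE 0.09, adjusted p = 0.0015), and both drugs gave -0.42 against enzalutamide (SE 0.09, 0.00218) and 0.01 against vehicle (interval from -0.17 to 0.19).

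IRS1 had 12.9, 12.4 and 12.1 CPM with both drugs, 16.5, 16.8 and 16.1 with enzalutamide and 12.5, 14.6 and 12.8 with vehicle. Both drugs over vehicle gave -0.09 (interval from -0.29 to 0.10), and the rise with enzalutamide alone (0.31, SE 0.10, adjusted p = 0.0172) lost its call without vehicle 1 (0.0873) or vehicle 3 (0.0693). IRS2 was low in all arms, at 6.15, 4.73 and 4.30 CPM with both drugs, 6.46, 5.83 and 5.30 with enzalutamide and 6.55, 6.68 and 6.16 with vehicle. The combination lay just below vehicle without overlap, yet did not pass (-0.35, SE 0.17, adjusted p = 0.104). It passed without combination library 1 (-0.52, 0.0357).

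IGFBP2 had 65.5, 71.5 and 70.8 CPM with both drugs, 45.4, 90.8 and 80.4 with enzalutamide and 117, 132 and 114 with vehicle. Both arms fell below vehicle (-0.81, SE 0.20, adjusted p = 0.00756, and -0.75, SE 0.20, 0.00609). Between them the difference was -0.05, and -0.29 (adjusted p = 0.00709) without the first enzalutamide column, which held the lowest value of all. IGFBP5 held 90 counts over the combination libraries, 199 over enzalutamide and 50 over vehicle. Its rise with enzalutamide (1.33, SE 0.47, adjusted p = 0.0278) was 0.67 (0.122) without the first enzalutamide column, and the call also ended without vehicle 2 (0.0762) or vehicle 3 (0.0914). IGFBP4 held 4, 11 and 0 counts over the combination, enzalutamide and vehicle libraries, and IGFBP6 2, 18 and 0. A count of 0 in a library allows up to 3 counts, for counting error only. ONECUT2 had 13.7, 16.0 and 13.3 CPM with both drugs, 20.8, 30.6 and 27.1 with enzalutamide and 16.9, 16.7 and 14.0 with vehicle. ONECUT2 did not pass for both drugs over vehicle (-0.15, SE 0.15). It was higher with enzalutamide over vehicle (0.71, SE 0.15, adjusted p = 0.00139) and lower with both drugs over enzalutamide (-0.86, SE 0.15, adjusted p = 0.000528). Those contrasts use the enzalutamide columns, with the limit of counting given above.

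**Figure D4:**
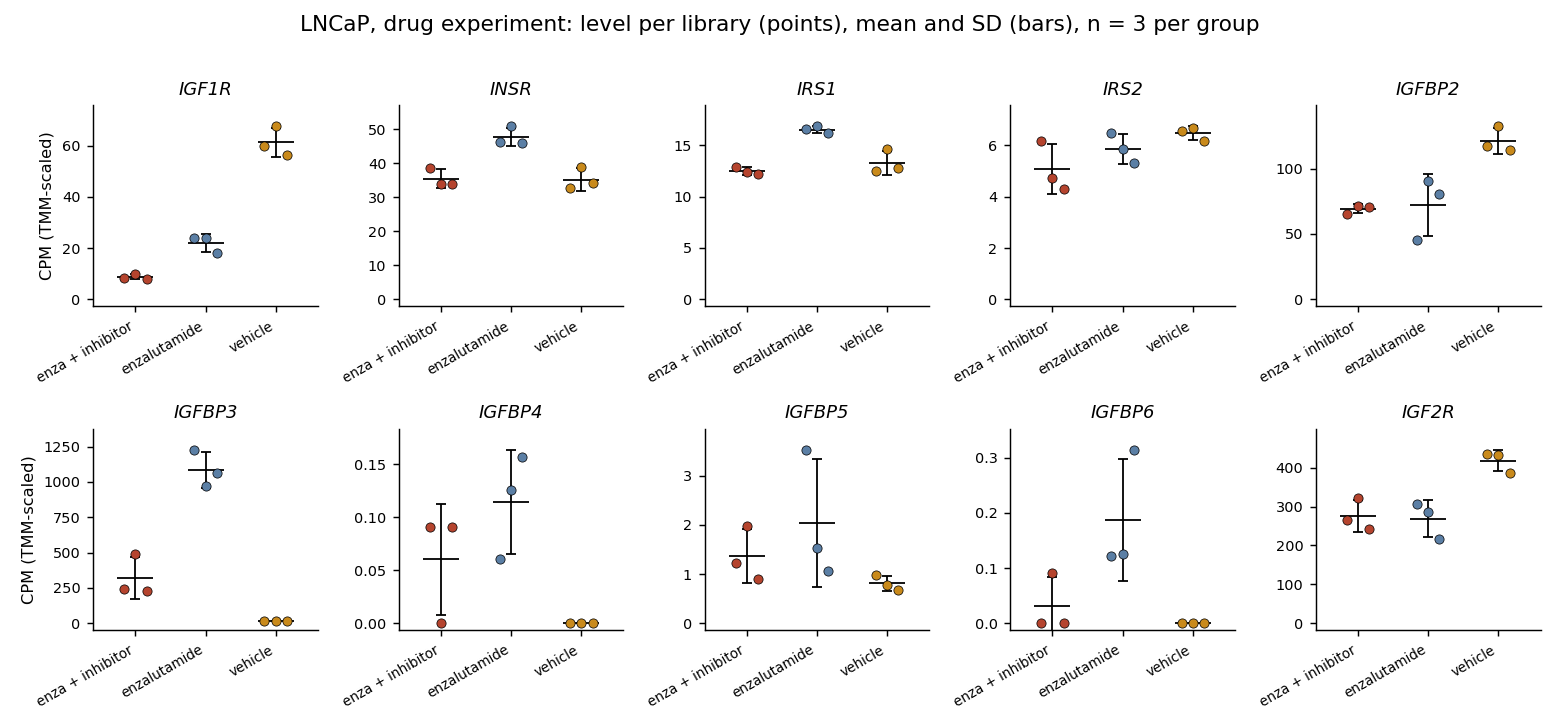
CPM of each of the 10 genes in each library of the drug experiment, a panel per gene with its own linear axis; points are libraries, bars the mean and SD of 3 libraries, in the order enzalutamide plus OC2 inhibitor, enzalutamide, vehicle. IGF1R falls into 3 separate ranges, and IGFBP3 lies at 969 to 1225 CPM with enzalutamide, 225 to 493.5 with both drugs and 15.0 to 18.8 with vehicle.

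The rest of the pathway was read from 49 genes in 7 lists: ligands, other binding proteins, the receptor INSRR, proteases of the binding proteins with their inhibitors, adaptors, the phosphatidylinositol 3-kinase branch, and the FOXO and mTOR branch. Of those tested, 8 of 40 were higher and 17 lower in LNCaP OC2 OE against control (62.5% called), and 10 of 39 higher and 14 lower against shCon (61.5%). In shOC2 against shCon 18 of 39 were higher and 10 lower (71.8%), and in LAPC4 OC2 OE 15 of 42 were higher and 13 lower (66.7%). Both drugs over vehicle gave 14 higher and 11 lower of 42 (59.5%), and enzalutamide 19 and 18 (88.1%). Over all genes, in the same order, 60.8%, 64.0%, 54.1%, 61.1%, 46.8% and 70.4% were called. The share in the lists was lower than that for OC2 OE against shCon and higher in the others. Of the list genes tested, 43.6% were called in shCon against control, where 56.4% of all genes were. Both drugs over enzalutamide gave 69.0% (all genes 61.9%) and the interaction 60.9% (49.5%). The lists were chosen with earlier results known, so these shares describe them and test nothing.

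Of the ligands, IGF1 averaged 7.48 ± 0.20 CPM in LNCaP OC2 OE, against 24.6 ± 2.27 in control and 1.22 ± 0.56 in shCon (SD, n = 2). OC2 OE was thus 3.35-fold lower than control (-1.74, adjusted p = 1.25e-06) and 6.04-fold higher than shCon (2.60, adjusted p = 9.9e-06), and shCon was 20.2-fold below control. IGF1 also fell in LAPC4 OC2 OE, 1.35-fold (adjusted p = 0.0428), and 5.51-fold with both drugs (adjusted p = 0.000495). IGF2 passed as a fall in OC2 OE against control (13 counts in all against 32, adjusted p = 0.0278). INS had no count in any library. INSRR, an orphan relative of the insulin receptor, had 24 and 27 counts in LNCaP OC2 OE and none in the control, shCon and shOC2 libraries, and at most 1 count in any library of the other tables. IGFBP7, a low-affinity relative of the binding proteins, rose 11.9-fold in LAPC4 OC2 OE (127 counts in all against 10, adjusted p = 1.97e-05). Like IGFBP4 and IGFBP6 there, IGFBP7 passed the filter through the OC2 OE libraries, where it is high.

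All 6 tested genes of the protease list fell in LNCaP OC2 OE against control, where 29.3% of all genes were lower. Their median log2 fold change was -0.90, and that of all genes 0.02. KLK2 and KLK3 are also in the luminal marker list. ADAM12, a metalloprotease that cleaves IGFBP3 and IGFBP5, fell 5.99-fold (-2.58, adjusted p = 0.000275), KLK3 3.11-fold (-1.64, adjusted p = 5.42e-08) and STC1, known to inhibit the protease PAPP-A, 1.93-fold. Against shCon 5 fell and 1 rose, where 30.8% of all genes were lower and 33.2% higher, with STC1 (-1.99), ADAM12 (-1.88) and HTRA1 (-1.11), a secreted serine protease, lower. The knockdown gave 4 falls and 2 rises, where 26.8% of all genes were lower and 27.3% higher. ADAM12 was 13.2-fold lower (3 counts in all against 47), HTRA1 8.23-fold and STC1 4.81-fold lower. ADAM12 passed the filter in that comparison through the shCon libraries, where it is higher. In LAPC4 OC2 OE 5 of the 8 genes tested rose and 2 fell, with a median of 0.70. Over all genes 32.1% were higher and 29.0% lower. There ADAM12 was 52.3-fold higher (5.71, adjusted p = 9.6e-08) and STC1 10.0-fold higher, the opposite direction from LNCaP, while KLK3 was 6.21-fold lower. The interaction was positive for ADAM12 (8.29, adjusted p = 1.01e-08) and STC1 (4.27, adjusted p = 1.51e-10). With both drugs KLK2 fell 27.8-fold (-4.80, adjusted p = 3.97e-06) and KLK3 24.4-fold (-4.61, adjusted p = 8.37e-06), while HTRA1 rose 8.12-fold (3.02, adjusted p = 6.38e-06).

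Among 8 adaptor and feedback genes tested, 3 rose and 2 fell in LNCaP OC2 OE against control, a share near the 60.8% called over all genes. GRB10, an adaptor that restrains IGF1R and INSR, fell 3.39-fold (-1.76, adjusted p = 8.82e-08), and the adaptors GAB1 and SHC1 rose 2.04-fold and 2.00-fold. SHC1 was also 1.82-fold higher in OC2 OE against shCon, 2.08-fold in shOC2 and 2.39-fold in LAPC4 OC2 OE (adjusted p = 2.2e-07 there). The LNCaP comparisons share OC2 OE or shCon libraries, so no agreement is counted. In LAPC4, SOCS3, a feedback inhibitor of cytokine and insulin signalling, rose 59.9-fold (1568 counts in all against 25, adjusted p = 2.69e-09). SOCS3 passed the filter there through the OC2 OE libraries, where it is high. GRB10 reached 1129 ± 44.1 CPM with both drugs and 1158 ± 60.7 with enzalutamide, against 188 ± 15.0 with vehicle (SD, n = 3), 5.99-fold and 6.12-fold higher.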

How the data were processed

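RNA-seq of 23 libraries was analysed in the groups the sample labels give. The submitters' processing notes name FastQC 0.9.0, Bowtie2 and hg38. How genes were counted, on which annotation and whether by strand, is not given in the sources used here. For LAPC4 and for the enzalutamide columns, raw counts were deposited by the authors. For the other LNCaP columns, the authors deposited estimated counts, which were rounded here. The enzalutamide columns carry no number that ties them to a sample and were used as members of their group. All value columns were assigned.

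Each comparison was tested over all genes with edgeR 4.0.16 in R 4.3.3 (TMM, filterByExpr, quasi-likelihood F-test, Benjamini-Hochberg, threshold 0.05 on the adjusted p), and SEs were derived from the F statistic. Groups compared were fitted alone, except the 3 drug arms. Alternatives were DESeq2 1.42.0, RLE size factors, no filter on low counts, leaving out each library, a replicate block, all 4 LNCaP groups in 1 fit and shCon in the interaction. The procedure was run on simulated data in which far fewer genes changed than were called here. That run does not give its error rates on these data. Symbols matched 99.5% of identifiers in the LNCaP table, 98.6% in LAPC4 and 59.8% in the drug table, and all 10 members in each. In the drug table, lines with the same symbol were summed, and the LNCaP and LAPC4 tables were kept by identifier. Libraries of a group differed by more than counting noise (chi-square per gene 3.35 to 77.1), and the first enzalutamide column stood farthest from its group. Combination and vehicle libraries with the same number deviated together over genes (correlations 0.15, 0.17 and 0.14). The reported tests carry no replicate block. A block on these numbers, fitted as an alternative, changed no call of a member in that comparison. The members and lists were chosen with earlier results of these data known. Named were all 10 members, ONECUT2 and, per list, up to 3 called genes with the largest change. A gene that this rule names is not reported here. Intervals are about 2 SE on either side.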

Additional observations from a re-analysis of the deposited data

Results flagged for a closer look

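The effect of OC2 overexpression differed between LAPC4 and LNCaP for 8 of the 10 genes, by the interaction term of the edgeR model (LAPC4 over vector minus LNCaP over control, log2). Of all 19633 genes tested, 49.5% were called, 25.4% more positive in LAPC4 and 24.1% more negative. The difference was 1.84 for IRS2, with a log2 fold change of 4.15 in LAPC4 and 2.31 in LNCaP. It was -1.84 for IGFBP3 (1.44 in LAPC4, 3.27 in LNCaP) and -0.75 for IGF1R (0.87 in LAPC4, 1.62 in LNCaP). INSR differed by -0.57 (-0.33 in LAPC4, 0.23 in LNCaP), IGFBP2 by 0.61 (0.68 in LAPC4, 0.07 in LNCaP), IGF2R by 0.62 (0.49 in LAPC4, -0.13 in LNCaP) and IRS1 by 0.51 (0.46 in LAPC4, -0.05 in LNCaP). The IRS1 call held in only 4 of 10 fits that left out a library. For IGFBP4 the difference of 9.63 rests in LNCaP on 1 count in OC2 OE and 9 in control. With shCon in place of control IGF1R turned to 0.99 (adjusted p = 0.000756) and IRS1 to -1.04 (adjusted p = 0.0013), and IGFBP4 lost its call (4.03, adjusted p = 0.957). Line, medium, R1881 and counting cannot be told apart in these differences.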

How the results depend on the processing

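Of 76 tests of a member, 50 were called and 42 of these kept their direction and call under every alternative run. Over all genes, 46.8% to 70.4% were called per comparison. Members too low for the main fit are left out of this count, also where an alternative tested them. For enzalutamide over vehicle 7 members were called in the main fit and 9 without the filter. Leaving out a library moved the sign of uncalled members on the log2 scale. For OC2 OE against control the values ran for IRS1 from -0.14 to 0.040, IGFBP5 from -0.25 to 0.25 and IGFBP2 from -0.045 to 0.18, and against shCon for INSR from -0.0228 to 0.0437, IGFBP5 from -0.0636 to 0.48 and IGF1R from -0.35 to 0.014. For shOC2 they ran for IRS1 from -0.0227 to 0.37, INSR from -0.21 to 0.0268 and IGF2R from -0.26 to 0.0155, for shCon against control for IGFBP5 from -0.50 to 0.0677 and IGFBP3 from -0.19 to 0.40, and in LAPC4 for IGFBP5 from -0.0806 to 0.0895. With both drugs they ran for INSR from -0.0515 to 0.0854 against vehicle, and for IGFBP5 from -0.92 to 0.0843, IGFBP2 from -0.29 to 0.14 and IGF2R from -0.0924 to 0.15 against enzalutamide, and in the interaction for IGFBP5 from -0.24 to 0.27. INSR in OC2 OE against shCon was 0.0101 with DESeq2, 0.00304 with RLE factors, 0.015 without the filter and 0.00334 with 4 groups in 1 fit, and IGFBP5 in LAPC4 was -0.0047 with RLE factors. With shCon in the interaction IGF1R was 0.99, IRS1 -1.04 and IGFBP5 -0.25, the control set being the change. Genes called in OC2 OE against shCon were 11002, and 7077 to 8375 without a library (7211 without OC2 OE 1, 7077 without OC2 OE 2), and in shOC2 8969, and 5076 to 7863 (5076 without shOC2 1, 5524 without shOC2 2), with fewer samples in the fit.

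The replicate block was an alternative outside the drug experiment too, where the labels give shared numbers only. Libraries with the same number had a correlation of deviations of 0.33 for OC2 OE and control, larger than in the drug arms. It was -0.033 for OC2 OE and shCon, -0.015 for shOC2 and shCon, and 0.11, -0.14 and -0.16 in LAPC4. With the replicate block, 11256, 10898, 8521 and 9808 genes were called in these comparisons, and the only member call it changed there was IGFBP2 in OC2 OE against shCon. For shCon and control (-0.12) the block gave 9172 genes and crossed numbers, chosen after seeing the data, 9872. Counts under about 10 per gene limit IGFBP4 and IGFBP6 in LNCaP.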

Other observations

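In the phosphatidylinositol 3-kinase branch, 1 of 11 tested genes rose and 5 fell in LNCaP OC2 OE against control, where 60.8% of all genes were called (31.6% higher, 29.3% lower). PIK3CB, a catalytic subunit, fell 2.37-fold (log2 fold change -1.25, SE 0.09, adjusted p = 1.6e-06). Against shCon 2 rose and 5 fell (all genes 33.2% higher, 30.8% lower), with the regulatory subunit PIK3R1 2.02-fold lower (-1.02, SE 0.06, adjusted p = 3.43e-07). In LAPC4 OC2 OE 3 rose and 4 fell (all genes 32.1% higher, 29.0% lower), and PIK3R1 was 1.97-fold lower (adjusted p = 8.76e-07). INPP4B, a lipid phosphatase that opposes the pathway, fell 6.92-fold with both drugs (-2.79, adjusted p = 5.58e-07).

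In the FOXO and mTOR branch, FOXO1, a transcription factor restrained by AKT, rose 4.11-fold in LAPC4 OC2 OE (2.04, SE 0.21, adjusted p = 2.48e-05) and 1.44-fold in LNCaP OC2 OE against control (adjusted p = 0.00551), and did not pass against shCon (-0.16, SE 0.11). MTOR rose 1.87-fold in shOC2 against shCon (adjusted p = 1.47e-05) and fell 1.82-fold with both drugs over vehicle (adjusted p = 1.71e-05). DEPTOR, an mTOR inhibitor, fell 2.13-fold in LAPC4 OC2 OE (adjusted p = 3.56e-05).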
